A study of Mus musculus with 10 samples.

Results

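The libraries described here are colon pieces of mice with dextran sulfate sodium (DSS) colitis, chosen by the level of *Hoxb6* in each piece. A piece was Hoxb6-high when *Hoxb6* exceeded 10 CPM (the count of the gene times 1000000 over the total count of the library) and Hoxb6-low otherwise. The rule took all 10 sequenced pieces, 5 as Hoxb6-high and 5 as Hoxb6-low. The DSS group held 5 male C57/BL6 mice, 8 weeks old when obtained, with 3% DSS as a drink for 7 days, and 3 of their pieces were high and 2 low. The ceAF group held 5 mice of the same strain, sex and age, which after the same course of DSS were dosed by gavage for 10 days with early chick amniotic fluid (ceAF) at 15 mL/kg, and 2 of their pieces were high and 3 low. The labels name the tissue as colon and do not state where along the colon a piece was taken. Poly(A) RNA was sequenced, and the counts on the 56691 genes of the table summed to 14676471 to 19901549 per mouse. The study compared ceAF with DSS, and the comparison of Hoxb6 classes asks which other genes differ between pieces of the same groups that differ in a *Hox* gene used to read position along the colon.

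*Hox* genes encode homeodomain transcription factors and stand in the clusters Hoxa, Hoxb, Hoxc and Hoxd. Within a cluster the order of the genes on the chromosome follows the order of their expression along the body axis of the embryo, and adult gut keeps much of that pattern. In the colon the posterior genes *Hoxa13* and *Hoxb13* are known for the hindgut and its distal end, and the more anterior Hoxb genes for pieces nearer to the cecum.

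The values that chose the classes are given as a description and were not tested. *Hoxb6* (ENSMUSG00000000690, chromosome 11, 96183302 to 96192395, plus strand, positions as deposited) stood at 25.4, 37.6 and 21.3 CPM in DSS-2, DSS-3 and DSS-4 and at 81.3 and 16.9 CPM in ceAF-1 and ceAF-3. In the low class it stood at 1.32 and 0.974 CPM in DSS-1 and DSS-5 and at 0.835, 3.11 and 0.935 CPM in ceAF-2, ceAF-4 and ceAF-5. The members just inside and just outside the limit were thus ceAF-3 at 16.9 and ceAF-4 at 3.11 CPM. Counts behind these levels ran from 13 in ceAF-2 to 1193 in ceAF-1, so counting error is largest in the low class.

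The other *Hox* genes, of the cluster of *Hoxb6* and of the other 3, were treated as part of the rule, since they too are read as markers of position, and their levels are likewise a description. The table holds 39 of them with *Hoxb6* included, 28 had enough counts to enter the fit and 24 exceeded 1 FPKM (the count per gene length and library total) in at least 1 mouse. In CPM of the plain total the classes were apart in 9 *Hox* genes. Every high mouse was above every low mouse in 8 of them, *Hoxb3*, *Hoxb4*, *Hoxb5*, *Hoxb6*, *Hoxb7*, *Hoxb8*, *Hoxd4* and *Hoxd8*. Among the 17327 other genes fitted, such an order was seen in 194 (1.12%), and every high mouse below every low mouse in 249 (1.44%). Nothing is read from the first of these shares for genes that stand beside *Hoxb6*.

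*Hoxa13* was the gene with the opposite order. Its level was 67.8, 42.5 and 75.85 CPM in DSS-2, DSS-3 and DSS-4 and 2.79 and 78.1 CPM in ceAF-1 and ceAF-3, and it was 84.8 and 86.0 CPM in DSS-1 and DSS-5 and 96.4, 92.3 and 88.15 CPM in ceAF-2, ceAF-4 and ceAF-5. Every high mouse was below every low mouse, ceAF-1 by far and ceAF-3 by a small margin. *Hoxb13* was 95.8, 95.5 and 106 CPM in the high DSS mice and 5.52 and 145 CPM in ceAF-1 and ceAF-3, against 79.2 and 209 CPM in DSS-1 and DSS-5 and 212, 10.65 and 196 CPM in ceAF-2, ceAF-4 and ceAF-5. The classes overlapped in *Hoxb13*, since ceAF-4 and DSS-1 of the low class were low or intermediate. Of the markers of position along the colon, *Hoxa13* and the anterior Hoxb genes thus separated the classes in CPM of the plain total and *Hoxb13* did not. For *Hoxa13* this rests on the scaling. The library scaling factors (TMM) used in the fit were 0.9607 in ceAF-3 and 1.065 in DSS-1. Divided by these factors, ceAF-3 would stand above DSS-1 and the classes would overlap in *Hoxa13*.

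Along chromosome 11, the 6 Hoxb genes that separated the classes are neighbours, from *Hoxb8* at 96172731 to the end of *Hoxb3* at 96238756. *Hoxb9*, the next gene towards *Hoxb13*, ran from 72.1 to 100.2 CPM in the high class and from 59.5 to 86.7 CPM in the low class, and the classes overlapped. *Hoxb2*, on the other side, stood below 1 CPM in all 10 mice. In the high class the order of mice was nearly the same for *Hoxb3* to *Hoxb8*: ceAF-1 was highest in each, with 33.9 CPM of *Hoxb8*, 26.1 of *Hoxb7*, 48.85 of *Hoxb5*, 29.4 of *Hoxb4* and 20.2 of *Hoxb3*, and DSS-3 came next. All 11 Hoxa genes had a negative high minus low log2 difference, from −1.06 for *Hoxa6* to −0.16 for *Hoxa2*, whereas 8 of 9 fitted Hoxb genes and 7 of 8 fitted Hoxd genes had a positive one. Without ceAF-1 the difference was −0.31 for *Hoxa13*, −0.26 for *Hoxb13* and 0.11 for *Hoxa2*. It also turned for *Hoxb2*, from 0.17 to −0.21, and shrank for *Hoxa9* and *Hoxa10*, from −0.65 and −0.62 to −0.15 and −0.16. None of the 9 Hoxc genes had enough counts to be fitted.

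Single mice went their own way within the clusters. *Hoxd13* reached 119.7 CPM in ceAF-2 and 105 CPM in ceAF-3, had a count of 0 in ceAF-4 and stayed between 1.40 and 10.65 CPM in the other mice, so it followed neither the classes nor the treatment. *Hoxa9* was highest in ceAF-4 at 193 CPM and lowest in ceAF-1 at 5.25 CPM. In 2 antisense genes the classes were also apart: *Hoxb5os* was 2.98 to 9.81 CPM in the high class and 0.76 to 1.71 CPM in the low class, and *Hoxa11os* was 4.77 to 129 CPM in the high class and 147.5 to 201.5 CPM in the low class. Whether the reads were counted by strand is not stated, so reads of a *Hox* gene and of its antisense partner cannot be told apart, and the deposited spans of *Hoxd3* and *Hoxd4* overlap.

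**Figure D1:**
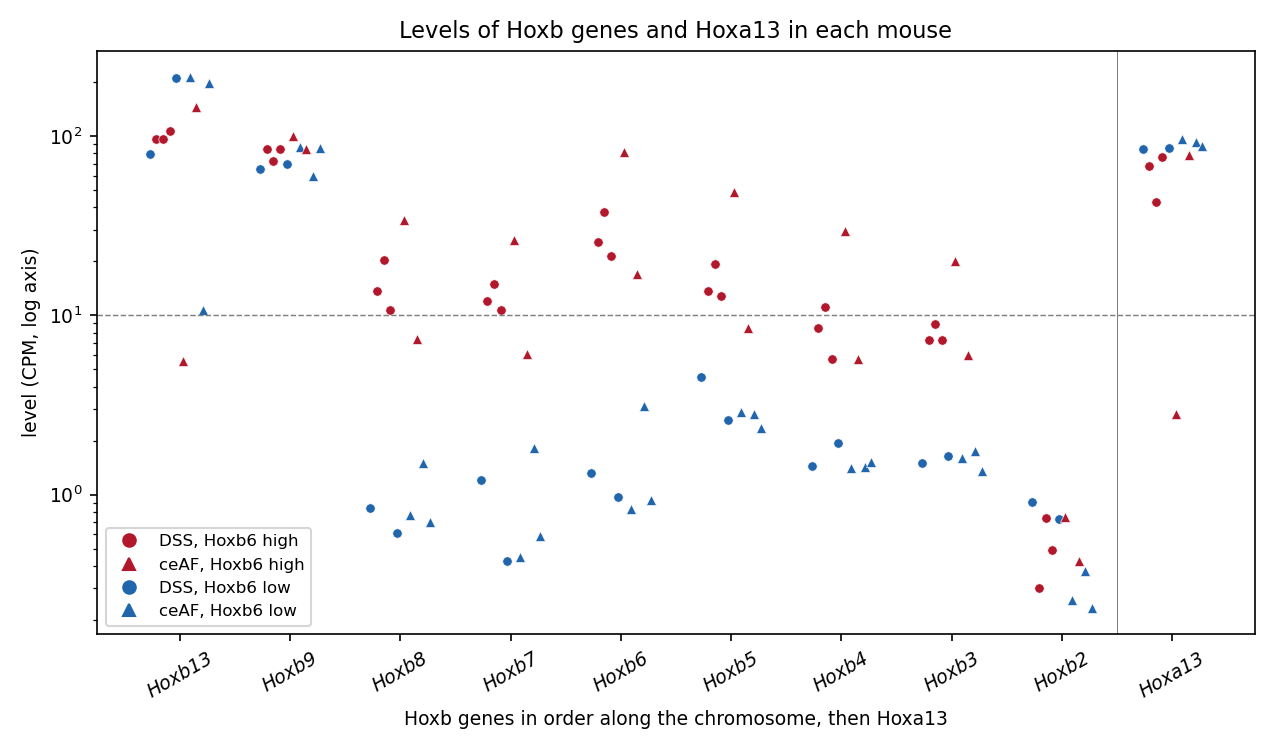
Level of each expressed Hoxb gene, in the order of their deposited positions on chromosome 11, and of *Hoxa13* in each of the 10 mice, in CPM on a log axis, with the class limit of 10 CPM for *Hoxb6* as a dashed line. Red points are Hoxb6-high and blue points Hoxb6-low mice, circles are DSS and triangles ceAF; the classes are apart from *Hoxb8* to *Hoxb3* and overlap in *Hoxb13*, where ceAF-1 and ceAF-4 stand at 5.52 and 10.65 CPM.

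Promoters, from 250 bases before to 50 after the start of a gene, were looked up in RefSeq for build GRCm38.p6. Of the 9 *Hox* genes that separated the classes, 5 had an entry; *Hoxa13* had one and *Hoxb6* and *Hoxb13* had none. The letters TTTATTG, which posterior Hox proteins prefer, and TAATTA, a core of many homeodomain sites, were searched on both strands. TTTATTG was in 1511 (4.6%) and TAATTA in 1738 (5.29%) of all 32851 promoters. TTTATTG was in 2 of these 5 promoters, those of *Hoxb8* (chr11:96281655-96281954, plus strand, letters starting at base 131) and *Hoxd4* (chr2:74721728-74722027, plus strand, the reverse complement starting at base 259), and TAATTA in 0 of them; these 2 were picked after their values were seen. Of the 46 other genes called different between the classes, given below, 36 had an entry, with TTTATTG in 1 (2.78%) and TAATTA in 5 (13.9%), and no test was made. The promoter of *Hoxa13* (chr6:52260831-52261130, minus strand), a marker of the classes, held neither. The promoters of *Hoxb4* and *Hoxd8* also held neither and are not printed. The sequences are shown 5′ to 3′ for the 2 genes with the letters found, in capitals, and for *Hoxa13* as the marker with the opposite order.
Hoxb8: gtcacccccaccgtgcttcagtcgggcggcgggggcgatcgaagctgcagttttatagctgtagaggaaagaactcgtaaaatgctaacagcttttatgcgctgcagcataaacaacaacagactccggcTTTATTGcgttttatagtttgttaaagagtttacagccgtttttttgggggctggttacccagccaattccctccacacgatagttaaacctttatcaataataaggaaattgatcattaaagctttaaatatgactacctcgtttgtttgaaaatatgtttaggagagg
Hoxd4: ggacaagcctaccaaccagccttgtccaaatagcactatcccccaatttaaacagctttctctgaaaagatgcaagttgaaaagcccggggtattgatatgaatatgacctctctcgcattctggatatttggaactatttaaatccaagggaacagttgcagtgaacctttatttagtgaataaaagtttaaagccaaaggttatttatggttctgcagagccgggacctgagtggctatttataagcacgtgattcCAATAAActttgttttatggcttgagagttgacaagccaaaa
Hoxa13: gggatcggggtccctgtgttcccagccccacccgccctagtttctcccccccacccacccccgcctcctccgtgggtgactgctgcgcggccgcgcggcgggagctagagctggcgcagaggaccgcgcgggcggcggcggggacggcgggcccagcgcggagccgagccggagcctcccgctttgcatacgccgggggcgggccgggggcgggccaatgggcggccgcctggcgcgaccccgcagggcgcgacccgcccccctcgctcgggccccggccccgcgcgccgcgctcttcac

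Some libraries stood apart from the rest. On principal components of log2 CPM, ceAF-1 was at 99.1 on the first (29.6% of the variance), with the other mice from −47.0 to 16.7, and it also had the smallest total count, 14676471, and the smallest TMM factor, 0.891. DSS-1 was at 64.1 on the second component (18.6%) and held most of the neutrophil RNA of the series, given with the lists. Mitochondrial genes took 4.53 to 9.74% of counts, with ceAF-1 at 9.66% and ceAF-5 at 9.74%. The high mice had a mean total of 17210000 and the low mice of 16350000, with mean mitochondrial shares of 6.30 and 6.61%. Within treatment the high minus low difference was 753400 in the total (exact two-sided permutation test, p = 0.47) and, against the order of the plain means, 0.06425 percentage points in the share (exact permutation p = 0.9; 100 arrangements, smallest possible p 0.01).

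Among genes outside the *Hox* clusters, Hoxb6-high pieces had higher levels of 41 genes (0.237% of 17327), among them 7 of the 33 fitted genes of the detoxification list (1 without ceAF-1, 0 without DSS-5 or ceAF-5) and the transcription factor genes *Osr2* and *Tbx3*, and lower levels of 5 genes, *Tnc* and *Cnn1* among them. *Osr2*, which encodes a zinc finger factor known from the development of limb and palate, was higher by 8.67 on the log2 scale. *Slc51a*, a subunit of the basolateral bile acid exporter, was higher by 5.70, *Ugt2b5*, which couples glucuronic acid to steroids and drugs, by 5.57, and *Car1*, a carbonic anhydrase abundant in colonocytes, by 3.36. *Tnc*, the matrix protein tenascin C, and *Cnn1*, the calponin of smooth muscle, were lower, with log2 differences of −1.12 and −1.09. In bulk pieces of tissue, fewer cells of a type and less RNA per cell cannot be told apart.

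In the fit with treatment as covariate, 46 of 17327 genes (0.265%) were differentially expressed (DEGs, adjusted p under 0.05 with the log2 fold change reaching 1 either way, by the quasi-likelihood test of edgeR with Benjamini-Hochberg adjustment). Of these, 41 (0.237%) were higher and 5 (0.0289%) lower in Hoxb6-high pieces. The log2 fold changes ran from 1.06 to 8.67 for the higher genes, with a median of 2.80, and from −2.81 to −1.09 for the lower genes, while the median over all genes was −0.03. At an unadjusted p under 0.05, 1409 genes were higher and 900 lower, 409 and 251 of them past the same fold change. DESeq2 at the same limits was fitted to all 32504 genes with a count and not to the filtered genes, and 18615 of them were tested. It called 302 genes, 241 higher and 61 lower. Without the filter, edgeR tested all 32504 and called 435. The classes did not overlap in 40 of the 41 higher and in 2 of the 5 lower DEGs, which were chosen on this class difference; over all genes fitted, every high mouse was above every low mouse in 1.12% and below in 1.44%.

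The count rested on single libraries, although all 46 DEGs kept their direction in every fit that left out a mouse. Leaving out ceAF-1 gave 7 DEGs (0.0393% of 17812 genes), 6 higher (0.0337%) and 1 lower (0.00561%), and all 7 were among the 46. These were *Osr2*, *Ugt2b5*, *Ugt1a7c*, *Ugt8a*, *Grin3a* and *Gal3st2*, higher, and *Tnc*, lower; *Gal3st2* falls outside the naming rule and was picked with its values in view. Without DSS-2, DSS-3 or DSS-4, the high mice of the DSS group, there were 11, 10 and 12 DEGs, 11, 10 and 11 of them among the 46. Without DSS-5 and without ceAF-5, both of the low class, there were 0, with smallest adjusted p-values of 0.0517 and 0.0572 in the quasi-likelihood test of edgeR with Benjamini-Hochberg adjustment, and 717 and 586 genes passed an unadjusted p under 0.05 with the fold change. Without ceAF-2 there were 23, without ceAF-4 26 and without DSS-1 39, and 12, 23 and 24 of these were among the 46. Without ceAF-3, the high mouse nearest to the limit, there were 274, with all 46 among them.

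*Osr2* (ENSMUSG00000022330, chromosome 15, 35296244 to 35303451 as deposited) had 61.4, 57.7 and 42.9 CPM in DSS-2, DSS-3 and DSS-4 and 238 and 25.6 CPM in ceAF-1 and ceAF-3. In the low class it had 0.361 and 0.183 CPM in DSS-1 and DSS-5 and 0.450, 0.0623 and 0.175 CPM in ceAF-2, ceAF-4 and ceAF-5. All 5 high mice were thus far above all 5 low mice, in which few reads were counted. The log2 fold change was 8.67 (standard error 0.764, adjusted p = 0.0055 by the quasi-likelihood test of edgeR with Benjamini-Hochberg adjustment), and 7.28 without ceAF-1 (adjusted p = 3.19e-05 in the same test). Beside this main fit stood 18 alternative fits. They were each mouse left out, upper quartile scaling, the 2 other filters, the block, DESeq2 and the 2 limma fits. The last, added after seeing the data, left out both ceAF-1 and ceAF-4, the mice low in *Hoxb13*. Of these 18 fits, 16 called *Osr2*, with an adjusted p from 2.14e-23 to 0.0572 in the test of each fit. The 2 without the call were those without DSS-5 and without ceAF-5. *Tbx3*, a T-box transcription factor gene, had 27.7, 29.6 and 28.2 CPM in the high DSS mice and 51.85 and 16 CPM in ceAF-1 and ceAF-3, against 4.81 to 14.45 CPM in the low class. It rose by 1.996 (standard error 0.344, adjusted p = 0.0456 by the quasi-likelihood test of edgeR with Benjamini-Hochberg adjustment), and by 1.56 without ceAF-1, where its adjusted p in the same test was 0.238, the largest of the 18 fits; it was called in 4 of them.

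The enzymes that couple glucuronic acid or another sugar to small molecules are a family picked after its values were seen. Of 8 Ugt genes fitted, 5 were DEGs, all higher, all 8 had a positive difference, and the median was 2.21 (1.80 without ceAF-1, where 3 of the 5 were called, *Ugt2b5*, *Ugt1a7c* and *Ugt8a*). Over all 17327 genes 0.237% were higher DEGs and 46.1% had a positive difference. *Ugt2b5* had 25.2, 25.1 and 15.5 CPM in the high DSS mice, 53.8 and 10.7 CPM in ceAF-1 and ceAF-3, and 0.241 to 2.12 CPM in the low class, whose highest mouse was ceAF-4. *Ugt8a*, which adds galactose to ceramide, had 4.22, 10.5 and 3.05 CPM in the high DSS mice and 20.85 and 3.08 CPM in ceAF-1 and ceAF-3, against 0.193 to 0.436 CPM in the low class. In both genes the classes were apart and ceAF-1 was highest. *Ugt2b36*, *Ugt1a7c* and *Ugt1a1*, the enzyme of bilirubin, were higher by 4.15, 1.06 and 2.61; *Ugt1a1* falls outside the naming rule and was picked with its values in view. *Ugt1a7c* and *Ugt1a1* lie within one another in the deposited positions and share exons, and *Ugt2b5* and *Ugt2b36* are close copies, so how reads were split between them is uncertain.

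Other enzymes of the detoxification list were higher as well. This list had 33 fitted genes of 38, of which 7 were higher DEGs and 0 lower, 28 had a positive difference and the median was 0.65. Over all 17327 genes 0.237% were higher DEGs, 7985 (46.1%) had a positive difference and the median was −0.03. *Cyp2c66*, a cytochrome P450 of the gut with close copies beside it, had 4.72, 17.8 and 3.84 CPM in the high DSS mice and 13.35 and 5.05 CPM in ceAF-1 and ceAF-3, against 0 to 0.623 CPM in the low class. It rose by 5.61, *Cyp4b1* by 4.90, the sulfotransferase gene *Sult1d1* by 1.27 and *Cyp2d26*, also picked with its values in view, by 2.14. The copies *Cyp2c55* and *Cyp2c65* were at 3.70 and 3.32 without passing the test (adjusted p = 0.128 and 0.142 by the quasi-likelihood test of edgeR with Benjamini-Hochberg adjustment), although the classes did not overlap in either. Of 7 fitted Cyp2c genes, 1 was a DEG, 4 had a positive and 3 a negative difference, and the median was 0.53. The summed level of the list was 4755, 5929 and 4991 CPM in the high DSS mice and 8569 and 4041 CPM in ceAF-1 and ceAF-3, against 2424 to 3240 CPM in the low mice, with *Cyp2c55* the most abundant gene and *Ugt2a3* at 0 in all mice. Without DSS-1 the median was 0.45 with 4 DEGs, and without ceAF-1 it was 0.80 with 1, *Ugt2b5*. There were 0 DEGs of the list without DSS-5 or ceAF-5, 2 without ceAF-2, 3 each without DSS-2, DSS-3 or DSS-4, 6 without ceAF-4 and 13 without ceAF-3, all higher. DESeq2 called 15 genes of the list, all higher. With the replicate number as a block 0 were called, with a median of 1.19. The limma fits on log2 FPKM plus 1 and plus 0.1 called 1 and 4, all higher.

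*Slc51a* had 144, 88.0 and 79.7 CPM in the high DSS mice and 257.5 and 49.2 CPM in ceAF-1 and ceAF-3, whereas the low mice had 2.53, 0.609, 1.93, 9.09 and 1.58 CPM in DSS-1, DSS-5, ceAF-2, ceAF-4 and ceAF-5. The classes were apart, with ceAF-4 the highest low mouse, and without ceAF-1 the difference was 5.10 with an adjusted p of 0.0697 in edgeR's test. *Slc30a10*, a manganese exporter, rose by 5.06, from 0.292 to 3.08 CPM in the low class to 14.7 to 93.1 CPM in the high class. *Sis*, the sucrase-isomaltase of the small intestinal brush border, rose by 6.04, with 14.4, 1.97, 1.95, 12.7 and 3.99 CPM in DSS-2, DSS-3, DSS-4, ceAF-1 and ceAF-3 and at most 0.181 CPM in the low class; without ceAF-1 it was at 5.42 with an adjusted p of 0.0697 in the same test. *Grin3a*, a glutamate receptor subunit (3.37), *Pla2g4c*, a phospholipase (1.42), *Mfap3l* (2.29) and *Vnn1*, a pantetheinase (2.80), complete the 15 higher genes with the smallest p. In each of these the high mice were all above the low mice.

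**Figure D2:**
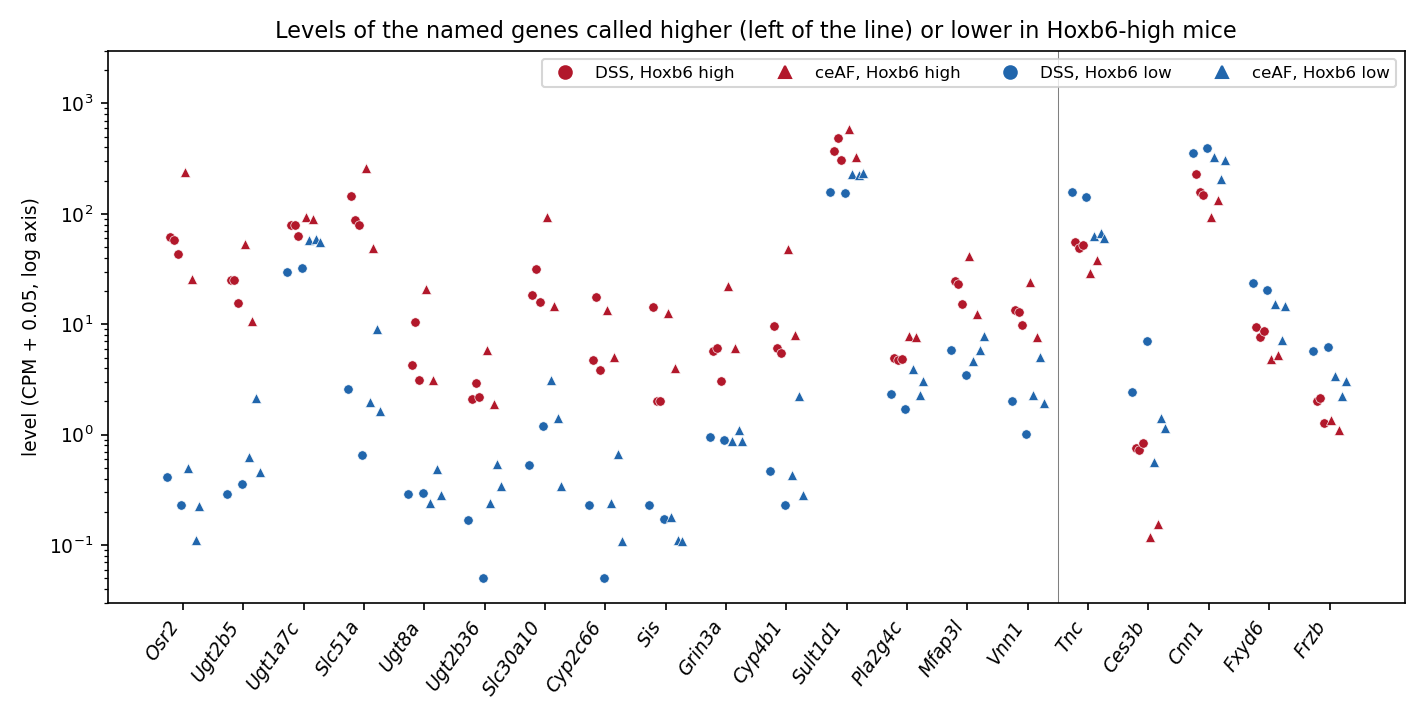
Level of the 15 genes with the smallest p that were higher and of the 5 that were lower in Hoxb6-high mice, in CPM plus 0.05 on a log axis, 1 point per mouse. Red points are Hoxb6-high and blue points Hoxb6-low mice, circles are DSS and triangles ceAF; *Osr2* lies between 25.6 and 238 CPM in the high and at or below 0.450 CPM in the low class, and in 3 of the lower genes, *Ces3b*, *Cnn1* and *Fxyd6*, the classes overlap.

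Across the 41 higher DEGs, the highest mouse, the lowest high mouse and the highest low mouse were counted. The level was highest of all 10 mice in ceAF-1 for 37 genes, in DSS-2 for 2 and in DSS-3 and ceAF-3 for 1 each. The lowest high mouse was ceAF-3 for 28 genes and DSS-4 for 11. The highest low mouse was ceAF-4 for 23, ceAF-5 for 7 and DSS-1 and ceAF-2 for 5 each. The genes were chosen on the class difference, and without ceAF-1 only 7 of the 46 DEGs were called. The place of ceAF-1 is thus partly fixed, and nothing is read from it. These places were counted after the values were seen and were not tested.

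The lower DEGs were *Tnc*, *Ces3b*, *Cnn1*, *Fxyd6* and *Frzb*. *Tnc* had 55.6, 48.85 and 51.8 CPM in the high DSS mice and 28.8 and 37.95 CPM in ceAF-1 and ceAF-3, against 157 and 143 CPM in DSS-1 and DSS-5 and 62.6, 66.8 and 59.8 CPM in ceAF-2, ceAF-4 and ceAF-5. The classes were apart, and the low DSS mice were above the low ceAF mice. Its log2 difference was −1.12 (standard error 0.144, adjusted p = 0.0169 by the quasi-likelihood test of edgeR with Benjamini-Hochberg adjustment), with −1.15 without ceAF-1. *Frzb*, a secreted Wnt antagonist, fell by 1.44 on the log2 scale (1.06 to 2.09 against 2.18 to 6.21 CPM), and *Fxyd6*, a regulator of the sodium pump, by 1.23. *Ces3b*, a carboxylesterase, had a difference of −2.81 on few counts, with 0.0681 to 0.793 CPM in the high and 0.514 to 6.94 CPM in the low class. The 4 genes other than *Tnc* were not called without ceAF-1, where *Ces3b*, *Cnn1*, *Fxyd6* and *Frzb* were at −2.73, −1.02, −1.26 and −1.59.

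Lists of genes for the ends of the colon were described beside the classes. The proximal list had 1 higher DEG of 5, *Car1* (0.237% higher over all genes), and DESeq2 called 3, all higher. Its median was 2.2 (1.77 without ceAF-1, 2.90 without DSS-1), with 4 genes positive (46.1% over all genes). At an unadjusted p under 0.05, 3 were higher and 1 lower, against 8.13% and 5.19% over all genes. With 1 mouse left out the list had 1 DEG without DSS-1, 2 without ceAF-3 and 0 without each of the other 8. With no filter edgeR called 3. *Car1* had 4679, 7978 and 4718 CPM in the high DSS mice and 10650 and 3242 CPM in ceAF-1 and ceAF-3, against 1162 and 116 CPM in DSS-1 and DSS-5 and 803, 786 and 537 CPM in ceAF-2, ceAF-4 and ceAF-5. Every high mouse was above every low mouse. In the main fit the adjusted p was 0.0445 by the quasi-likelihood test of edgeR with Benjamini-Hochberg adjustment, and 0.199 without ceAF-1. It was at most 0.217 over the 18 alternative fits, of which 4 called *Car1*. *Aqp4*, a water channel, had the opposite sign (−1.02) and *Ang4* was at 0.40. The distal list, *Scnn1b*, *Scnn1g*, *Insl5*, *Tgm3*, *Prdx6* and *Eno3*, had 0 DEGs of 6 in edgeR's test and 0 in DESeq2. At an unadjusted p under 0.05, 1 gene was lower (5.19% over all genes). Its median was −0.66, with all 6 genes negative (53.7% over all genes). The median was −0.34 without ceAF-1, with 5 negative, and −1.40 without ceAF-3, with 1 lower DEG. Its summed level was 753 CPM in ceAF-1 and 1449 CPM in ceAF-4, the mice low in *Hoxb13*, and 2637 to 4675 CPM in the other 8 mice, so the classes overlapped.

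Among 30 fitted cofactors and patterning factors of the gut, *Tbx3* was the single DEG (0.237% higher over all genes) and the median was 0.02. DESeq2 called 1 gene of this list higher and 1 lower. With 1 mouse left out the list had 1 higher DEG without ceAF-3 and 0 without each other mouse. The caudal homeobox genes of the intestine did not pass the test, with *Cdx2* at 0.75 (67.0 to 237 CPM in the low and 129 to 275 CPM in the high class) and *Cdx1* at 0.14. All 10 pieces expressed these 2 intestinal factors, and *Nkx2-5* was at 0 in all of them.

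In lipid and ketone metabolism 0 of 29 genes were DEGs in edgeR's test and 5 in DESeq2, all higher, 19 had an unadjusted p under 0.05, all positive, against 1409 of 17327 (8.13%) higher over all genes, and the median was 0.49 (0.40 without ceAF-1); leaving out 1 mouse gave 1 higher DEG without DSS-1, 4 without ceAF-3 and 0 without each other mouse, and with no filter edgeR called 5. Its summed level was 3524 to 5756 CPM in the high and 2381 to 3264 CPM in the low class. Colonocyte transport had 2 higher DEGs of 32, *Slc51a* and *Car1* (0.237% higher over all genes), and a median of 0.09. At an unadjusted p under 0.05, 10 of its genes were higher and 3 lower, against 8.13% and 5.19% over all genes. It had 0 DEGs and medians of 0.06, 0.23 and 0.08 without ceAF-1, DSS-5 and ceAF-5. Without DSS-2, DSS-3, DSS-4, ceAF-2 or ceAF-4 it had 1 higher DEG, and without ceAF-3 1 lower beside 2 higher. Its chloride exchanger *Slc26a3* was at −0.62 and sulfate transporter *Slc26a2* at 0.00. The small intestine list had 1 higher DEG of 15 fitted genes, *Sis* (0.237% higher over all genes), and a median of 0.57. At an unadjusted p under 0.05, 6 of its genes were higher and 0 lower, against 8.13% and 5.19% over all genes. It had 0 DEGs without DSS-5, ceAF-1, ceAF-2, ceAF-4 or ceAF-5 and 2 without ceAF-3. DESeq2 called 2 of its genes and edgeR with no filter 4. With 1 mouse left out its median ran from 0.49 to 0.85, or was 0.44 without ceAF-1 over the same genes. Its summed level was 1640, 1229, 1293, 1562 and 1304 CPM in DSS-2, DSS-3, DSS-4, ceAF-1 and ceAF-3 and 907, 1201, 1239, 1109 and 1215 CPM in DSS-1, DSS-5, ceAF-2, ceAF-4 and ceAF-5. *Mgam* was its most abundant gene and the Paneth cell gene *Defa17* was at 0 in all mice, and the part of small intestine RNA in the differences was not tested.

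Lists for the other epithelial cell types had 0 DEGs in edgeR's test and in DESeq2. These were goblet cells (median −0.09 over 20 genes, 0 with an unadjusted p under 0.05), crypt stem cells (0.05 over 19, 2 higher), enteroendocrine cells (−0.04 over 19, 1 higher), tuft cells (0.29 over 14, 3 higher) and the cell cycle (−0.11 over 22, 0). Over all genes 8.13% were higher and 5.19% lower at that p. With 1 mouse left out the median ran from −0.21 (without DSS-5 or ceAF-3) to 0.08 (without ceAF-4, and 0.07 without ceAF-1) in goblet cells, from −0.07 (without ceAF-5) to 0.09 (without ceAF-1 or ceAF-2) in crypt stem cells, from −0.20 (without ceAF-3) to 0.11 (without DSS-5) in enteroendocrine cells, from 0.05 (without DSS-5) to 0.82 (without DSS-1) in tuft cells and from −0.23 (without DSS-1) to 0.14 (without ceAF-1) in the cell cycle. Without ceAF-3, and with no filter, edgeR called 1 enteroendocrine gene higher. The mucin gene *Muc2* was at −0.10, the stem cell receptor gene *Lgr5* at 0.98, the granin gene *Chga* at 0.33 and the tuft cell factor gene *Pou2f3* at 1.51, none of them past the test. The goblet list was low in ceAF-1, with 5587 CPM against 12600 to 18820 CPM in the other 9 mice. The injury and regeneration list had a median of −0.36 over 18 genes (−0.15 without ceAF-1, −0.17 without DSS-1, −0.74 without ceAF-3), 0 with an unadjusted p under 0.05 and 0 DEGs in both tools.

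**Figure D3:**
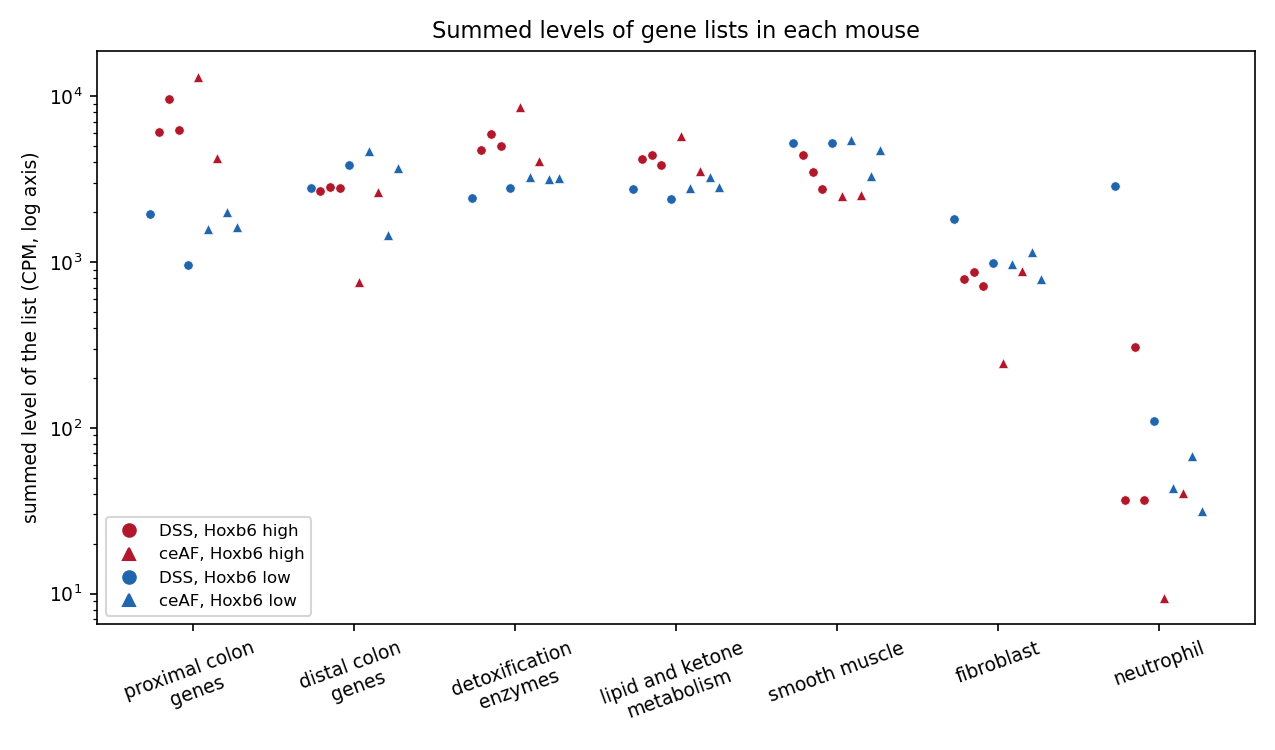
Summed level of 7 gene lists in each mouse, in CPM on a log axis, with Hoxb6-high mice in red, Hoxb6-low mice in blue, DSS as circles and ceAF as triangles. The classes are apart in the proximal colon, detoxification and lipid lists and overlap in the others. The proximal sum rests largely on *Car1*, itself a DEG, with 3242 of 4224 CPM in ceAF-3 and 786 of 1996 CPM in ceAF-4. Without *Car1*, ceAF-4 would stand above ceAF-3 and the proximal sums would overlap. The mouse ceAF-1 is lowest in the distal, fibroblast and neutrophil lists and DSS-1 highest in the neutrophil list, at 2855 CPM.

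In smooth muscle 1 of 20 genes was a lower DEG (*Cnn1*), 13 had a negative difference with an unadjusted p under 0.05, 19 were negative and the median was −0.63 (−0.61 without ceAF-1). Over all 17327 genes 5 (0.0289%) were lower DEGs, 900 (5.19%) were lower at that p and 9310 (53.7%) were negative. Leaving out 1 mouse kept 1 lower DEG of the list without DSS-2, ceAF-3 or ceAF-4 and gave 0 without each of the other 7. *Cnn1* had 231, 156 and 149.6 CPM in the high DSS mice and 93.1 and 132 CPM in ceAF-1 and ceAF-3, against 355.5 and 392 CPM in DSS-1 and DSS-5 and 324, 205 and 310.4 CPM in ceAF-2, ceAF-4 and ceAF-5, so ceAF-4 lay below DSS-2. *Acta2*, *Myh11* and *Tagln* were at −0.66, −0.57 and −0.64 without passing the test. The summed level of the list was 4387, 3500, 2764, 2488 and 2536 CPM in DSS-2, DSS-3, DSS-4, ceAF-1 and ceAF-3 and 5201, 5213, 5470, 3280 and 4702 CPM in DSS-1, DSS-5, ceAF-2, ceAF-4 and ceAF-5, with *Tpm1* the most abundant gene and 0 of its genes at 0 throughout. The classes overlapped, and how far the share of muscle in a piece took part in the differences was not tested.

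The fibroblast list had 0 DEGs of 19 in edgeR's test and 2 lower in DESeq2, with 7 lower at an unadjusted p under 0.05 (5.19% over all genes), all 19 negative (53.7% over all genes) and a median of −0.66 (−0.47 without ceAF-1, −0.42 without DSS-1, and −0.93 with 1 lower DEG without ceAF-3), and with no filter edgeR called 3 lower. Its summed level was 789, 873, 718, 245 and 879 CPM in DSS-2, DSS-3, DSS-4, ceAF-1 and ceAF-3 and 1818, 986, 979, 1142 and 786 CPM in DSS-1, DSS-5, ceAF-2, ceAF-4 and ceAF-5, with *Col3a1* the most abundant gene. Here ceAF-1 was lowest and DSS-1 highest, and the other 8 mice overlapped. Enteric neurons and glia had a median of −0.15 over 24 genes and 0 DEGs in both tools. At an unadjusted p under 0.05, 3 were lower (5.19% over all genes). The median was −0.60 without ceAF-1 and 0.16 without DSS-1, and with no filter edgeR called 1 lower.

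In the neutrophil, B cell and inflammation lists the median came nearer to 0 without DSS-1 and moved away from 0 without ceAF-3. The neutrophil list had 0 DEGs of 16 in edgeR's test and 0 in DESeq2, 9 lower at an unadjusted p under 0.05 (5.19% over all genes) and a median of −2.40, which became −0.14 without DSS-1 and −3.52 without ceAF-3. Its summed level was 2855 CPM in DSS-1, 307 CPM in DSS-3 and 9.40 to 109.5 CPM in the other 8 mice, with *S100a9* the most abundant gene, and *S100a8* was at −3.42 with and −2.32 without DSS-1. The median of the B cell list was −1.03 over 19 genes (−0.20 without DSS-1, −2.04 without ceAF-3) and that of inflammation and acute response −0.94 over 24 (−0.36 without DSS-1, −1.53 without ceAF-3). At an unadjusted p under 0.05 these lists had 1 and 9 genes lower and 0 and 2 higher. Over all genes 5.19% were lower and 8.13% higher at that p, also for the lists that follow. Both lists had 0 DEGs in edgeR's test, and 0 and 2 lower in DESeq2. Without ceAF-3 the inflammation list had 4 lower DEGs and without ceAF-4 1 higher. Macrophage genes had a median of −0.12 over 17 (0.05 without DSS-1, 0.05 without ceAF-1 and −0.56 without ceAF-3), plasma cell genes −0.11 over 12 (0.02, 0.16 and −0.54) and T cell genes 0.32 over 20 (0.58, 0.38 and 0.34, and 0.05 without DSS-5), with 0 DEGs in both tools and 1, 0 and 0 lower and 1, 0 and 3 higher at an unadjusted p under 0.05. DSS-1 also had the highest macrophage sum, 1203 CPM against 309 to 617 CPM in the other 9 mice. Without ceAF-2 1 T cell gene was a higher DEG. With no filter edgeR called 7 neutrophil, 5 inflammation and 2 macrophage genes lower and 1 inflammation gene higher, and with the replicate number as a block 2 neutrophil genes lower. The part of these cells in the class difference was not tested beyond leaving mice out.

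Genes of tissues that a colon piece can carry along were low. The squamous epithelium list summed to 32.5 to 61.7 CPM in all 10 mice, with *Sprr3* and *Krtdap* at 0 in each, and had a median of −0.13 over 8 fitted genes (−0.04 without ceAF-1, −0.25 without ceAF-3). The list of fat, pancreas and skeletal muscle summed to 156.5 to 255 CPM, mostly *Pck1*, with *Amy2a5* and *Myh4* at 0 in each, and had a median of 0.46 over 8 genes (0.05 without ceAF-1, 0.27 without DSS-5, and 1 higher DEG without DSS-1). Both had 0 DEGs in edgeR's test, and DESeq2 called 1 and 0, as did edgeR with no filter. At an unadjusted p under 0.05, 1 squamous gene was lower (5.19% over all genes). At that p 3 genes of the other list were higher (8.13% over all genes).

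The class difference was then taken within each treatment, to see whether the DSS and ceAF mice showed it alike. All 46 DEGs had the same sign in both, with log2 differences of 0.97 to 7.64 in DSS and 0.81 to 9.33 in ceAF for the higher genes; since they were chosen on all mice, this direction is partly fixed. *Osr2* differed by 7.64 in DSS and 9.33 in ceAF, *Slc51a* by 6.10 and 5.39, *Car1* by 3.26 and 3.47 and *Tbx3* by 2.02 and 1.97. The interaction of class and treatment gave 0 DEGs (0%) in the quasi-likelihood test of edgeR with Benjamini-Hochberg adjustment, with a smallest adjusted p of 0.506, and 435 genes with an unadjusted p under 0.05, 292 of them past the fold change. Without DSS-1, which left 1 low DSS mouse, the interaction was 2.97 on the log2 scale for *Hspa1b*. Without ceAF-3, which left ceAF-1 as the only high ceAF mouse, it was −2.93 for *Nt5e*. Both genes were picked with their values in view, and each value rests on a single library in a class of a treatment. Of the 46, 2 had an unadjusted p under 0.05 for the interaction, *Tnc* (−1.47 in DSS and −0.77 in ceAF) and *Ugt1a7c* (1.31 and 0.81).

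Because DSS and ceAF mice are different animals, genes picked in one treatment could be read in the other. Of 326 genes higher in the high class of DSS mice (unadjusted p under 0.05 and the fold change), 269 (82.5%) were above 0 in ceAF mice, against 48.2% of all genes, and of 353 lower genes 289 (81.9%) were below 0, against 51.8%. Of 395 genes higher in the high class of ceAF mice, 369 (93.4%) were above 0 in DSS mice, against 47.1% of all genes, and of 197 lower genes 132 (67.0%) were below 0, against 52.9%. Genes are not independent of each other, and these shares carry no test. Within DSS mice alone 1 gene was a DEG, *Tnc*, lower, and within ceAF mice 0 were, with 679 and 592 genes past an unadjusted p of 0.05 and the fold change in edgeR's test.

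With the Hoxb6 class in the model, ceAF and DSS mice were compared among pieces of equal class. The study compared ceAF with DSS, and the class in the model was added here. *Cd8a*, a coreceptor of cytotoxic T cells, had 17.9, 35.0, 29.0, 29.5 and 15.5 CPM in DSS-1 to DSS-5 and 12.7, 10.5, 10.5, 6.35 and 6.02 CPM in ceAF-1 to ceAF-5, with every ceAF mouse below every DSS mouse. Its log2 difference was −1.22 with class in the model (unadjusted p = 4.97e-05 in edgeR's quasi-likelihood test) and −1.41 without it (unadjusted p = 0.000761). The receptor chains *Cd3e*, *Cd3d* and *Cd3g* were at −0.99, −1.35 and −1.32, *Cd8b1* at −1.98, and the signaling genes *Lck*, *Lat* and *Zap70* at −1.22, −1.48 and −1.12. The other genes among the 5 with the smallest p were *Chrd* (−1.22), *Tnc* (−0.89) and *Clip4* (−2.03).

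After adjustment, 0 genes (0%) were DEGs between ceAF and DSS by the quasi-likelihood test of edgeR with Benjamini-Hochberg adjustment, with a smallest adjusted p of 0.331 with class in the model and 0.648 without it. At an unadjusted p under 0.05, 1476 genes differed with class in the model and 1202 without it, and 383 of the 1476 passed the fold change, 70 higher and 313 lower. DESeq2 with class in the model called 50 genes, 3 higher and 47 lower. Without ceAF-2 edgeR's test called 3, *Nkg7*, *Gzmb* and *Cd8a*, all lower in ceAF; *Nkg7* and *Gzmb*, genes of cytotoxic granules, were picked with their values in view. The common dispersion was 0.0851 with class and 0.107 without it.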

How the data were processed

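The authors deposited 1 table that holds, for every gene and mouse, a raw count of reads and an FPKM value, which equals the count per exonic length and total count in 100% of values within 0.0051. The submitters' processing notes name cutadapt 1.9.1 and HISAT2 2.2.1; the counting program, strand setting and genome build are not given in the sources used here, so positions are printed as deposited. Mice were grouped by their labels, and nothing in the labels says how a piece was cut from the colon. The libraries were compared in 20 pairs within treatments and differed by more than counting noise (chi-square per gene 14.2 to 142), so each counted as 1 mouse; that they are separate animals rests on the labels.

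Counts were analysed with edgeR 4.0.16 in R 4.3.3: filterByExpr with a minimum count of 10 kept 17361 genes, TMM scaled the libraries (factors 0.891 to 1.06), and the quasi-likelihood test, two-sided, was adjusted by Benjamini-Hochberg over all genes kept. The model held class and treatment, or also their product. *Hox* genes and their antisense genes were left out of counts of DEGs (34 of 45 had been kept). CPM per mouse uses the plain total. Lists (24) are described by counts and medians. Alternatives were DESeq2 1.42.0, limma 3.58.1 on log2 FPKM plus 1 or 0.1, upper quartile scaling, no filter or a minimum count of 50, the replicate number as a block, no covariate, class limits of 5 and 20 CPM, a continuous *Hoxb6* level, and leaving out each mouse. The scripts were tested on simulated counts. Figures used matplotlib 3.10.9 in Python 3.11.15.

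Genes were named by rule: *Hox* genes over 1 FPKM; the 15 higher and 15 lower DEGs with the smallest p and a symbol that is no predicted model or pseudogene; of each list its first 3 genes and up to 5 DEGs; and 8 T cell receptor genes with the 5 smallest p of the treatment comparison. The classes and lists were chosen with earlier results of these data known. Some genes that the rule takes are not reported here. Untreated mice were not analysed here.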

Additional observations from a re-analysis of the deposited data

Results flagged for a closer look

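Within each class of 5, the distance of the highest or lowest mouse from the next was divided by the range of the class, for total count, mitochondrial share and the 24 list sums. The *Hox* genes, which set the classes, and single DEGs, which were chosen by them, were left out of this. A mouse stood apart (ratio above 0.71, Dixon's limit for 5) in 7 of 52 such groups; chance gives about 1 in 20, and the groups are not independent since the lists share mice. Of the 7, 3 were ceAF-1, 2 DSS-1, 1 DSS-3 and 1 ceAF-3.

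In ceAF-1 the sums of the distal colon list, 752.8 CPM (2637 to 2817 in the other high mice), the fibroblast list, 245.4 CPM (718 to 879), and the plasma cell list, 820.6 CPM (2774 to 3380), were below the rest of the high class. The sum of cofactors and patterning factors was 930.7 CPM in ceAF-3, below the 1045 to 1087 CPM of the other high mice.

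The neutrophil sum was 2855 CPM in DSS-1 (31.5 to 109.5 in the other low mice) and 306.7 CPM in DSS-3 (9.40 to 40.7 in the other high mice). DSS-1 was also above the low class in the macrophage sum, at 1203 CPM (476 to 573).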

How the results depend on the processing

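The count of 46 DEGs between the classes came to 37 with upper quartile scaling, all among the 46, 32 with a minimum count of 50, 31 of them among the 46, 53 at any fold change, 46 with a limit of 5 CPM, which leaves the classes as they are, and 37 without both mice low in *Hoxb13* (ceAF-1 and ceAF-4), an alternative chosen after seeing the data, of which 25 were among the 46. It moved further with DESeq2 (302), fitted to 32504 genes of which 18615 were tested, in place of 17361, so tool and filter changed together. With no filter edgeR tested all 32504 and called 435, and an unadjusted p gave 660. Limma on log2 FPKM plus 1 gave 5 and plus 0.1 gave 13, and no covariate gave 14. A limit of 20 CPM, which puts ceAF-3 in the low class, gave 316. *Hoxb6* as a continuous level gave 10 per unit of log2 and 417 at any fold change, the latter added after seeing the data. The cause was not tested. Leaving out 1 mouse gave 0 (DSS-5 and ceAF-5) to 274 (ceAF-3). Over the settings with the class as a factor, all 46 DEGs kept their direction where tested, and upper quartile scaling moved the median of all genes from −0.03 to −0.07. Of the 22 DEGs named by rule, 22 were called in DESeq2, 20 with upper quartile scaling and 4 and 11 with limma.

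The treatment comparison gave 0 DEGs in all settings but DESeq2 (50), no filter (94), an unadjusted p with the fold change (383) and 0 to 3 when 1 mouse was left out. The interaction gave 0 with upper quartile scaling and 292 with an unadjusted p. Leaving out DSS-1, DSS-5, ceAF-1 or ceAF-3 left 1 mouse in a class of a treatment, so no count is given there. Leaving out any other mouse gave 0. The cause was not tested.

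With the replicate number as a block the classes gave 7 DEGs, 2 of them among the 46, and the treatment comparison 0. The numbers did not pair the mice: deviations of same-numbered mice correlated at −0.24, −0.12, −0.01, −0.15 and 0.27, and 2 of 10 mice correlated best with their own number.

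Depth limits the genes that are near 0 in the low class: *Hoxb6* rests on 13 to 50 counts there. Each class within a treatment holds 2 or 3 mice, so differences within a treatment rest on few animals, and where a piece was taken is not labelled.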
